A study of Homo sapiens with 12 samples.

Results

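The response of PANC-1 cells to 30 min of TNF-α under SIK3 siRNA was read from 4 of the 12 RNA-seq libraries of the series. PANC-1 is a human cell line from a pancreatic ductal adenocarcinoma. Its cells were transfected for 72 h and then either given TNF-α at 100 ng/mL or not. The 4 libraries were chosen by the condition words in the names of the submitters' count tables: 2 named SIK3 with 30min were set against 2 named SIK3 with CLM, and CLM was read as no TNF. For comparison, 2 libraries named with control siRNA (Scr1) and CLM, 2 named with control siRNA and 30 min, and 2 named SIK3 and 4h were used in the same way. Each group held 2 biological replicates, lettered B and C in the names and numbered 1 and 2 in the titles, and all carry either a control or a SIK3 siRNA, so no untransfected cells are among them. The labels do not say whether replicates came from separate cultures, so p-values measure the spread between these samples. In bulk RNA, a change in how many cells respond and a change in each cell cannot be told apart.

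The condition words and the sample titles conflict for 8 of the 12 libraries and match for 4. In the titles the target is called AS1, and in the characteristics SIK3. The 2 libraries named SIK3 with 30min are titled control siRNA with TNF-α for 4 h, and the 2 named SIK3 with CLM are titled siAS1 with TNF-α for 30 min. The control libraries named 30min are titled siAS1 unstimulated, and those named 4 h are titled control siRNA with TNF-α for 30 min. The control libraries named CLM and the SIK3 libraries named 4h bear the same condition in both. Every direction below rests on the condition words, and a library is called by them throughout.

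SIK3 (ENSG00000160584, chr11:116843402-117098437 on GRCh38) was measured in every library as a check of the siRNA words. In replicate B it stood at 16.3 CPM (reads per gene relative to the library total, scaled between libraries by TMM) with no TNF, 17.3 at 30 min and 18.3 at 4 h in the libraries named SIK3, and at 34.3, 42.5 and 34.4 CPM in those named control. In replicate C the values were 22.4, 24.0 and 22.8 CPM against 60.4, 68.7 and 65.2 CPM. Within each replicate letter, all libraries named SIK3 lay below all those named control. By the titles, the siAS1 unstimulated libraries are those at 42.5 and 68.7 CPM, among the highest of the 12. With conditions taken from the titles, the comparison sets the libraries named SIK3 with CLM against those named control with 30min, so it also crosses the siRNA words. It called 9980 genes and reversed most of the genes described here, with EGR2 at a log2 fold of −3.01.

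The 4 libraries held 22699756 (no TNF, B), 14384957 (no TNF, C), 18567878 (30 min, B) and 19783290 (30 min, C) counted reads. A count of 0 in one of them allows a level of up to 0.132 to 0.209 CPM, that of 3 counts, as far as counting error goes. Multimapping reads made up 5.53 and 5.82% of reads in replicate B but 45.3% (no TNF) and 27.8% (30 min) in replicate C, and their part in the results was not tested. The 6 epithelial markers, KRT8, KRT18 and KRT19 among them, were all detected, with summed levels of 5910 to 6100 CPM with no TNF and 5419 to 6077 CPM at 30 min. All 4 acinar markers were at 0, and the 5 leukocyte markers summed to at most 0.255 CPM, with CD3E at 0. The 4 endothelial markers summed to at most 1.16 CPM and the 5 fibroblast markers to at most 16.3 CPM.

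TNF-α binds its receptors at the cell surface and drives 2 fast signalling arms. The first frees NF-κB dimers from their inhibitor IκBα, which then induce inhibitors, chemokines and survival genes. The other runs through MAP kinases and the ternary complex at CArG boxes and induces the immediate early genes. Immediate early genes, many of which encode transcription factors, need no new protein synthesis for their induction. SIK3 is a salt-inducible kinase that phosphorylates CRTC coactivators of CREB and class IIa histone deacetylases and so holds them in the cytoplasm.

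Promoter sequences are shown for the largest rises among listed genes whose upstream region holds a match to the motif of either arm, the NF-κB motif (GGG, any 3 bases, then TTCC) or the CArG box, with matches on either strand in capitals. They come from RefSeq on GRCh38.p14 and are read on the gene's strand. EGR1 (chr5:138465229-138465478, plus strand) and EGR2 (chr10:62816367-62816616, minus strand) are given as the 250 bases before the start, and hold 2 and 1 CArG boxes. For CXCL3 (chr4:74038748-74038777, minus), CXCL2 (chr4:74099253-74099282, minus), TNFAIP3 (chr6:137867188-137867217, plus) and ZFP36 (chr19:39406743-39406772, plus) the 30 bases around the NF-κB matches are given. The last matching base lies 69, 68, 46 and 85 bases before the RefSeq start in these 4 genes. In the same order, 118, 98, 71 and 34 of the 250 bases before that start are annotated as exon. The stretches shown for CXCL3, CXCL2 and TNFAIP3 lie inside the annotated genes and may be transcribed. CXCL2 and CXCL3 hold 2 overlapping matches, 1 on each strand, TNFAIP3 holds 2 and ZFP36 holds 1.
EGR1: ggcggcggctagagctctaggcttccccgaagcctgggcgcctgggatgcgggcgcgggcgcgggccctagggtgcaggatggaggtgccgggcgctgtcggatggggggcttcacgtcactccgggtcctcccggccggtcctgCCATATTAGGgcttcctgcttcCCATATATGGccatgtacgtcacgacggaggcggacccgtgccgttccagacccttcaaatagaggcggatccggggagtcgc
EGR2: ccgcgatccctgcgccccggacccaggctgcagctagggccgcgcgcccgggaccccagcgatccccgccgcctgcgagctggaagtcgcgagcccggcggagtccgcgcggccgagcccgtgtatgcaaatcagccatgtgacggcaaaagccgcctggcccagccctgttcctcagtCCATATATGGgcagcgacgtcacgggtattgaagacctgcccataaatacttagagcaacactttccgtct
CXCL3: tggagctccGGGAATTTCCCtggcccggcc
CXCL2: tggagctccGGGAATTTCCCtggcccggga
TNFAIP3: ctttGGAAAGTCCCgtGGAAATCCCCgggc
ZFP36: cgcgcgtccgGGAAGCGCCCctcctgcccc

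Of the 279 genes called higher at 30 min, 230 had a RefSeq promoter window of the same kind (250 bases before and 50 after the start). The NF-κB motif was in 28 of these 230 windows (12.2%), against 6.47% of the 27305 windows of the whole table. CArG boxes were in 4 (1.74%, against 1.27%), the cyclic AMP element TGACGTCA in 8 (3.48%, against 1.92%) and the AP-1 letters TGANTCA in 19 (8.26%, against 7.98%). These are descriptions of letters, counted on both strands, and not of binding. Of the 284 genes called lower 201 had a window, with the NF-κB motif in 11.4%, CArG boxes in 3.98%, the cyclic AMP element in 1.49% and the AP-1 letters in 7.46%. Of the 16695 genes tested 11342 had one, with shares of 7.78, 0.943, 3.17 and 5% in the same order. The NF-κB shares of the genes called higher and lower were thus close to each other, and the windows that the table lacks for the lower and the tested genes are too many for a valid comparison of these shares.

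In the cells named SIK3 siRNA, 30 min of TNF raised and lowered about equal numbers of genes, most of them by small folds, and the largest rises included transcription factor, chemokine and NF-κB inhibitor genes. Of 16695 genes tested, 563 (3.37%) differed from no TNF at an adjusted p under 0.05 in edgeR's quasi-likelihood test with the replicate letter as a block. Of these, 279 (1.67%) were higher and 284 (1.7%) lower. The median fold was 1.32 among the higher and 1.28 among the lower, with 37 genes higher and 9 lower by at least 2-fold. Among calls whose groups do not overlap and whose 30 min level averaged 1 CPM or more, the largest rises were those of EGR2, CXCL3, EGR4, NR4A1 and EGR3. The median log2 fold of all genes tested was −0.002.

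The number of calls depends on the block and on each library. Without the replicate block, edgeR called 25 genes, 23 of them higher, and these include EGR2, FOS, NR4A1, ATF3, JUNB, IER2, NFKBIZ, NFKBIA, TNFAIP3, TRAF1, CXCL2, CXCL3, IRF1 and RASD1. Leaving out the no TNF libraries B or C gave 217 or 214 calls, and leaving out the 30 min libraries B or C gave 227 or 248. With only the 4 libraries in the fit, 1439 genes were called.

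**Figure D1:**
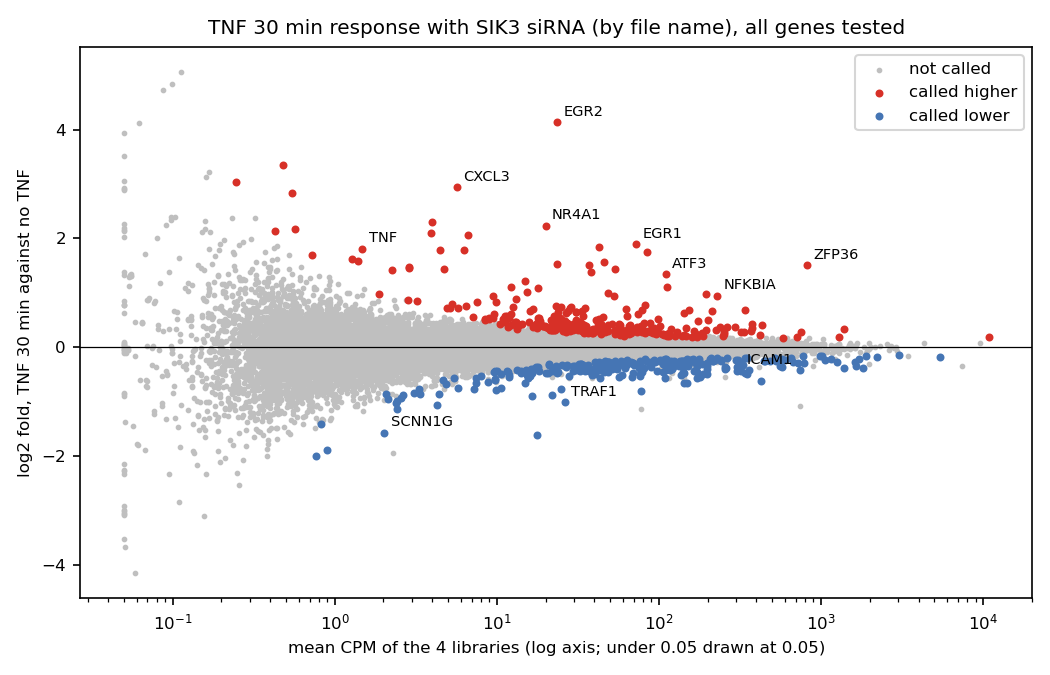
Log2 fold of each of the 16695 genes tested (y axis, TNF 30 min against no TNF) against its mean CPM in the 4 libraries (x axis, log scale), with the 279 genes called higher in red and the 284 called lower in blue. Most called genes of either colour lie close to 0, with 37 higher and 9 lower by at least 2-fold, TRAF1 and SCNN1G among the latter.

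The immediate early list, mainly transcription factor genes but with others such as CCN1 and CCN2, had the highest median of the 14 gene lists. All 32 listed genes were tested, and 19 rose and 3 fell, with a median log2 fold of 0.66. Of all genes tested, 1.67% were called higher and 1.7% lower, and the counts of each list below stand beside these shares. EGR2 (ENSG00000122877), a zinc finger factor of the early growth response family, stood at 2.59 and 2.18 CPM with no TNF (B, C) and at 36.4 and 52.9 CPM at 30 min. Both 30 min libraries lay far above both others, and the fitted fold was 17.6 (log2 4.14 ± 0.15 SE, adjusted p = 1.7e-13). Its relative EGR1 went from 16.4 and 42.7 to 52.5 and 177 CPM. Replicate C was higher than B at both times, the groups did not overlap, and the fold was 3.71 (log2 1.89 ± 0.11, adjusted p = 2.12e-10). EGR3 and EGR4 were scarce, at 0.92 and 2.11 and at 1.00 and 1.70 CPM with no TNF, and reached 4.53 and 8.24 and 5.35 and 7.90 CPM (log2 folds 2.10 and 2.31, adjusted p = 3.31e-06 and 1.23e-06).

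FOS (ENSG00000170345), the partner of JUN in the AP-1 dimer, was at 18.0 and 18.9 CPM with no TNF and at 57.0 and 77.6 CPM at 30 min. The groups were well apart, with a fold of 3.60 (log2 1.85 ± 0.11, adjusted p = 3.6e-10). JUNB, another AP-1 member, went from 19.8 and 18.4 to 53.2 and 56.3 CPM (2.86-fold, adjusted p = 1.88e-10). ATF3, a stress-responsive factor of the ATF family, went from 63.3 and 61.6 to 161 and 155 CPM (2.53-fold, adjusted p = 3.52e-12), and both of its replicates moved almost equally. The early gene IER2 went from 26.1 and 31.9 to 76.4 and 79.1 CPM (2.71-fold, adjusted p = 1.88e-10).

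NR4A1, an orphan nuclear receptor gene that is both an immediate early gene and a CREB target, was at 5.77 and 8.50 CPM with no TNF and at 29.1 and 37.0 CPM at 30 min (4.71-fold, log2 2.24 ± 0.14, adjusted p = 4.17e-10). The groups did not overlap. An antisense gene neighbours NR4A1, and since the strand setting of the counting is not stated, their reads cannot be told apart here. NR4A2 went from 2.47 and 2.45 to 4.89 and 9.12 CPM (2.71-fold, adjusted p = 8.87e-04), and its adjusted p was 0.0576 without the no TNF library C and 0.0726 without the 30 min library C. Of 16 CREB and CRTC targets tested, 4 rose and 2 fell, with a median log2 fold of 0.26. The 4 that rose were FOS, NR4A1, NR4A2 and NR4A3, all of them also on the immediate early list. None of the 14 SIK kinases and substrates was called. With 14 genes this cannot be told apart from the 3.37% called among all genes tested. SIK1, a CREB target and relative of SIK3, was at 19.2 and 21.9 CPM with no TNF and at 19.1 and 22.1 CPM at 30 min, and SIK2 had a log2 fold of −0.06 (adjusted p = 0.78).

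**Figure D2:**
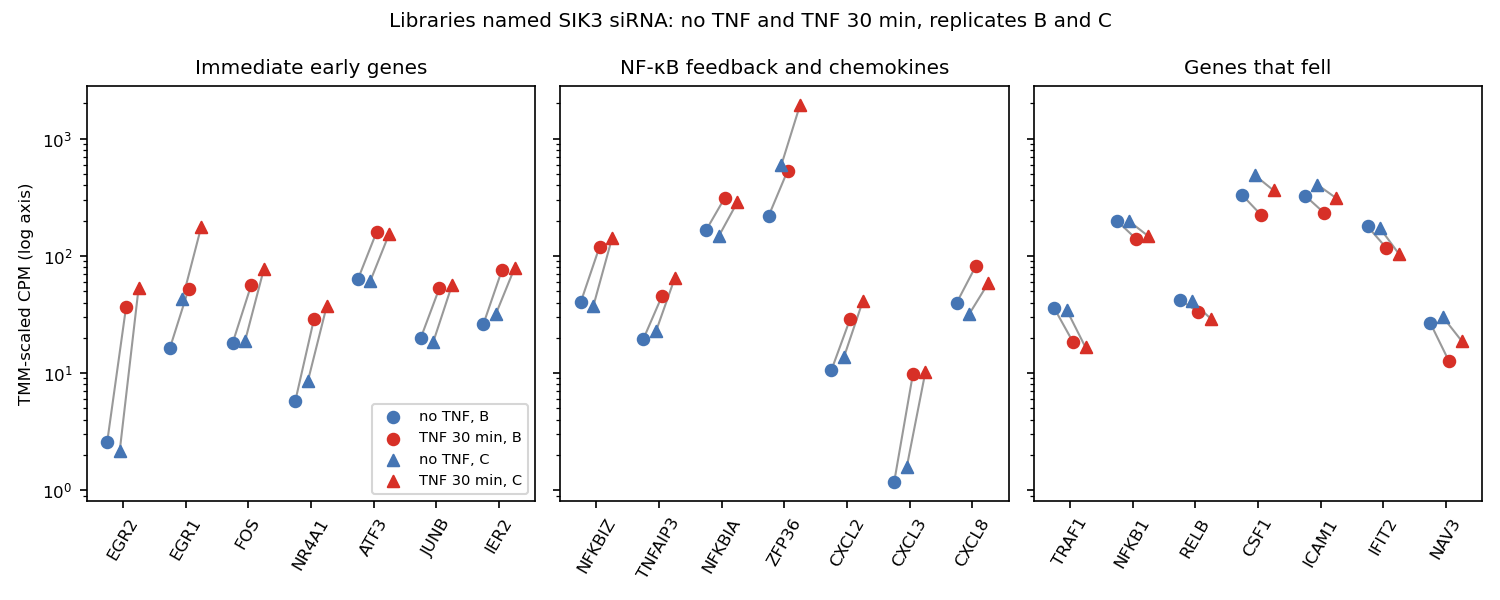
TMM-scaled CPM (log axis) of 21 genes in the 4 libraries named SIK3 siRNA, blue for no TNF and red for TNF 30 min, circles for replicate B and triangles for C, with a line joining the libraries of 1 replicate. Each line climbs in the panels of immediate early, NF-κB feedback and chemokine genes and descends in the panel of genes that fell, and in EGR1, ZFP36 and CSF1 replicate C lies above B at both times.

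NF-κB feedback genes moved both ways. Of 13 tested, 4 rose and 5 fell (median log2 fold −0.12). Inhibitor genes were among both the risers and the fallers. NFKBIZ (ENSG00000144802), which encodes the nuclear protein IκBζ, went from 40.2 and 37.1 to 119 and 142 CPM, and the groups lay far apart (3.35-fold, log2 1.75 ± 0.08, adjusted p = 3.52e-12). TNFAIP3, whose product A20 is a ubiquitin editor that restrains the receptor complex, went from 19.6 and 22.7 to 45.9 and 64.4 CPM (2.60-fold, adjusted p = 9.34e-10). NFKBIA, the gene of IκBα itself, went from 166 and 147 to 314 and 288 CPM (1.93-fold, log2 0.95 ± 0.06, adjusted p = 9.58e-10). The remaining riser, NFKBID, is a relative of NFKBIZ.

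TRAF1 (ENSG00000056558), an adaptor of the TNF receptor family, moved the other way. It was at 35.8 and 34.6 CPM with no TNF and at 18.4 and 16.6 CPM at 30 min, with replicates close together at both times (2.01-fold lower, log2 −1.01 ± 0.08, adjusted p = 1.42e-08). CYLD, a deubiquitinase gene, went from 85.7 and 71.3 to 65.1 and 59.97 CPM (log2 −0.33, adjusted p = 5.86e-03), and its adjusted p lay between 0.0644 and 0.215 without the no TNF library B or either 30 min library. NFKBIE, the gene of IκBε, went from 52.2 and 50.3 to 45.7 and 39.5 CPM (log2 −0.27, adjusted p = 0.0497), and its call was lost without any one of the 4 libraries (adjusted p 0.127 to 0.407). CYLD and NFKBIE are outside the rule for named genes and were chosen after their values were seen. TNIP1, which encodes an A20 partner, went from 112 and 163 to 91.1 and 120 CPM (log2 −0.37, adjusted p = 6.47e-04), with groups that overlap, and its adjusted p was 0.0772 without the no TNF library C. Among the 5 NF-κB subunits, 2 fell and none rose. NFKB1, the gene of p105 and p50, went from 200 and 197 to 141 and 148 CPM (1.38-fold lower, log2 −0.46 ± 0.05, adjusted p = 1.08e-05). RELB went from 42.4 and 40.9 to 33.1 and 29.1 CPM (1.34-fold lower, adjusted p = 2.53e-03). Its adjusted p was 0.0502 without the no TNF library C and 0.0867 without the 30 min library C. In the TNF receptor complex, the proteins that assemble at the bound receptor, 2 of 20 fell and 18 were not called (median log2 fold −0.04).

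Cytokines and chemokines moved both ways. Of 24 tested, 6 rose and 4 fell, with a median log2 fold of −0.003. The risers included CXCL1, CXCL2, CXCL3 and CXCL8, chemokines that attract neutrophils. CXCL3 (ENSG00000163734) was scarce with no TNF, at 1.17 and 1.56 CPM, and reached 9.83 and 10.3 CPM (7.66-fold, log2 2.94 ± 0.21, adjusted p = 4.61e-09). CXCL2 went from 10.6 and 13.7 to 29.1 and 41.0 CPM (2.89-fold, adjusted p = 1.23e-09). CXCL8, the gene of interleukin-8, went from 40.0 and 32.0 to 81.4 and 58.3 CPM (1.93-fold, adjusted p = 4.14e-07), and CXCL1 from 56.2 and 63.9 to 88.2 and 106 CPM (1.61-fold, adjusted p = 9.45e-07). In all of them the lowest 30 min library lay above the highest library with no TNF. CXCL2 and CXCL3 are highly similar neighbours, so reads shared between them could have been split or dropped by the counting.

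TNF itself went from 0.59 and 0.68 to 1.73 and 2.94 CPM (3.52-fold, log2 1.81 ± 0.29, adjusted p = 4.81e-04). CSF1, the macrophage growth factor, fell from 330 and 489 to 224 and 362 CPM (1.41-fold lower, log2 −0.50 ± 0.05, adjusted p = 3.08e-06). The groups of CSF1 overlap because replicate C is higher at both times, and it was lower at 30 min within each replicate. IL6, CSF3 and TNFSF15 were too scarce to be tested.

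The list of MAP kinase phosphatases and ERK feedback genes was mixed, with 5 of 19 higher and 2 lower (median log2 fold −0.09). DUSP2, a nuclear phosphatase of MAP kinases, went from 3.30 and 1.77 to 12.4 and 9.12 CPM (4.20-fold, log2 2.07 ± 0.19, adjusted p = 3.91e-07). DUSP6, the cytoplasmic phosphatase of ERK, went from 26.0 and 22.0 to 35.9 and 40.0 CPM (1.57-fold, adjusted p = 1.4e-04). DUSP1, abundant already, went from 301 and 335 to 404 and 453 CPM (1.35-fold, adjusted p = 2.8e-05). ERRFI1, an inhibitor of the EGF receptor, went from 1250 and 1193 to 1580 and 1518 CPM (1.27-fold, adjusted p = 1.3e-05), and its divergent transcript neighbours it. None of these groups overlapped.

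Among 8 mRNA decay factors ZFP36 alone was called. It encodes tristetraprolin, which binds AU-rich elements and promotes decay of cytokine mRNAs, and it went from 221 and 595 to 532 and 1946 CPM (2.84-fold, log2 1.51 ± 0.08, adjusted p = 1.78e-10). The no TNF library C lay above the 30 min library B, so the groups overlap, while the 30 min level was higher within each replicate. Of 19 genes of the IRF, STAT and interferon-stimulated list, 2 rose and 4 fell (median log2 fold −0.09). IRF1, an interferon regulatory factor that NF-κB induces, went from 56.6 and 64.3 to 99.3 and 107 CPM (1.71-fold, log2 0.77 ± 0.06, adjusted p = 6.96e-09). The interferon-stimulated IFIT2 fell from 178 and 172 to 117 and 104 CPM (1.59-fold lower, adjusted p = 1.12e-07) and IFIT3 from 69.0 and 70.9 to 54.5 and 43.6 CPM (1.43-fold lower, adjusted p = 3.66e-04). GBP1, a guanylate-binding protein gene, went from 19.2 and 17.7 to 12.2 and 13.4 CPM (adjusted p = 1.56e-03), and its adjusted p was 0.112 without the no TNF library B and 0.0714 without the 30 min library B.

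Adhesion and matrix genes were lower more often than higher, with 5 of 14 lower and 1 higher (median log2 fold −0.25). ICAM1, the leukocyte adhesion receptor, went from 328 and 405 to 235 and 311 CPM (1.35-fold lower, log2 −0.43 ± 0.05, adjusted p = 1.75e-05). The only riser was PLAU, the urokinase gene, from 347 and 318 to 420 and 399 CPM (1.23-fold, adjusted p = 6.47e-04). Groups were apart in both.

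Of 16 survival and apoptosis genes, 4 rose and 3 fell (median log2 fold −0.06). MCL1, a short-lived anti-apoptotic BCL2 relative, went from 257 and 202 to 326 and 268 CPM (1.29-fold, adjusted p = 1.21e-04), whereas the anti-apoptotic BCL2L1 fell from 118 and 152 to 89.1 and 111 CPM (1.35-fold lower, adjusted p = 7.11e-05). SOD2, the mitochondrial superoxide dismutase, went from 686 and 571 to 507 and 477 CPM (adjusted p = 2.27e-03), and its adjusted p was 0.0951 without the no TNF library B and 0.0832 without the 30 min library B. Of 24 cell cycle and replication genes 3 were higher and none lower (median log2 fold 0.15). CCNB1, the mitotic cyclin, went from 84.4 and 70.3 to 101 and 89.1 CPM (1.23-fold, adjusted p = 1.68e-03, and 0.0592 without the 30 min library C).

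The 13 mitochondrially encoded mRNAs were all below 0 on the log2 scale, with a median of −0.36, and none was called. They made up 0.206 and 0.843% of counted reads with no TNF and 0.127 and 0.814% at 30 min, and the part of this difference in the results was not tested.

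**Figure D3:**
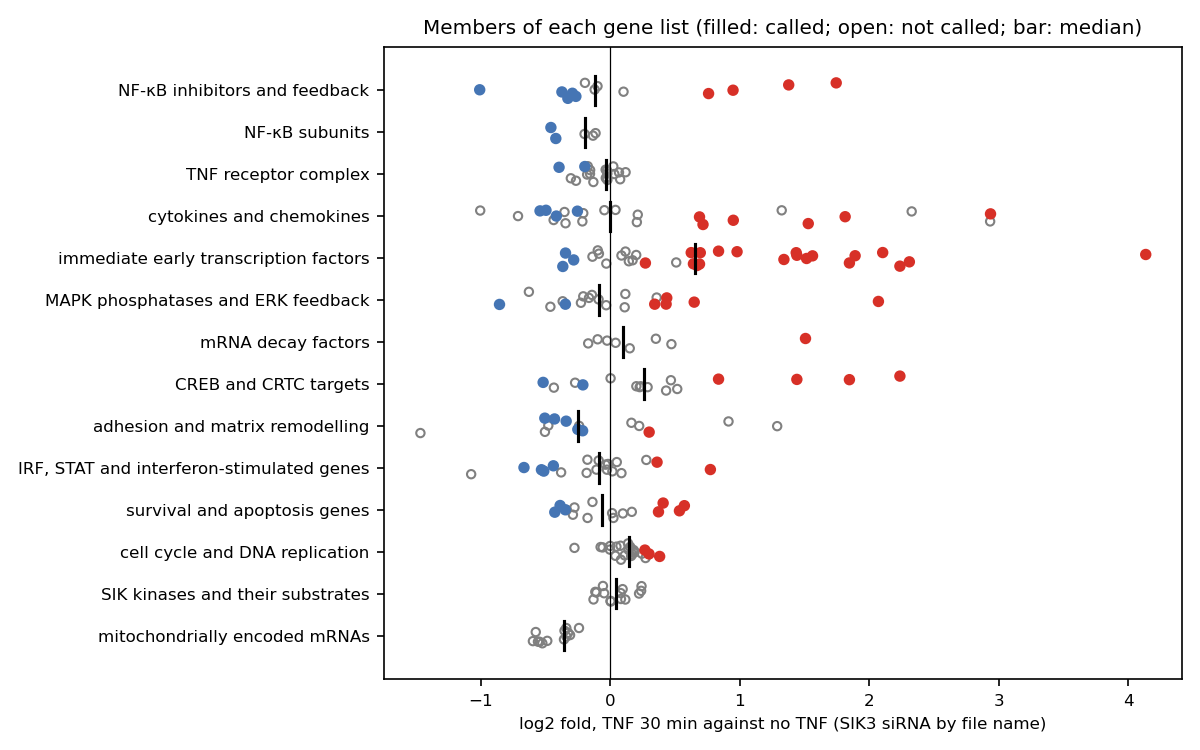
Log2 fold (x axis, TNF 30 min against no TNF) of each tested member of the 14 gene lists (y axis), filled red for members called higher, filled blue for those called lower and open for those not called, with a black bar at the list's median. The immediate early list has the highest median (0.66) and the mitochondrial list the lowest (−0.36), and the feedback and cytokine lists have members on both sides.

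Outside the lists, RASD1, a RAS-like GTPase gene, rose from 2.72 and 2.93 to 9.78 and 9.81 CPM (3.47-fold, adjusted p = 3.92e-07), with close replicates. Among the largest falls, NAV3, which encodes a microtubule-associated protein, went from 26.8 and 30.1 to 12.6 and 18.8 CPM (1.84-fold lower, adjusted p = 3.75e-06). SCNN1G, a subunit of the epithelial sodium channel, was scarce at 30 min, with 3.64 and 2.38 against 1.17 and 0.93 CPM (log2 −1.57 ± 0.28, adjusted p = 1.42e-03), and its adjusted p was 0.147 without the no TNF library B. GDF15, a stress-induced TGF-β relative, rose from 37.1 and 27.6 to 72.3 and 57.3 CPM (2.01-fold, adjusted p = 1.34e-07). TXNIP, the thioredoxin-interacting protein, rose from 21.2 and 21.2 to 35.5 and 34.5 CPM (1.65-fold, adjusted p = 2.93e-05). The 37 genes that rose by at least 2-fold had a median gene length of 3.46 kb, against 29.9 kb for all genes called higher, 36.4 kb for those called lower and 25.2 kb for the 16576 tested genes with a length.

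The same 30 min step in the libraries named control siRNA, which share no library with the 4 above, called 464 genes (2.78%), 303 higher (1.81%) and 161 lower (0.964%). Without the block it called 49, and without the control libraries no TNF B or 30 min B it called 233 or 155. Of the genes called higher, 124 were called in both, 44.4% of the SIK3 siRNA calls and 40.9% of the control calls. Of those called lower, 67 were called in both, 23.6% and 41.6%. Whether the responses differ was tested as the difference of the 2 log2 folds. The test called 44 genes (0.264%), with the response under SIK3 siRNA above that of the control in 13 (0.0779%) and below it in 31 (0.186%). No gene was called without the replicate block, where 317 had an unadjusted p under 0.05. With the block, the DESeq2 Wald test called 56 and limma voom 48. Leaving out the control library with no TNF C gave 69 calls, and leaving out the SIK3 30 min library B gave 29. In the control libraries, multimapping reads made up 5.38 and 38.2% of reads with no TNF (B, C) and 17.6 and 30.9% at 30 min. Their part in the control response and in the difference between siRNAs was not tested.

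Chemokine and NF-κB feedback genes were called among those with a lower log2 fold under SIK3 siRNA. In the cytokine list 6 of 24 genes had a lower log2 fold and none a higher one, and in the feedback list 3 of 13. CCL2, among the 6, was called lower at 30 min under SIK3 siRNA and higher in the control. CXCL1 rose from 27.4 and 34.4 to 107 and 124 CPM under control siRNA, a log2 fold of 1.91 against 0.69 under SIK3 siRNA (difference −1.22 ± 0.10 SE, adjusted p = 8.64e-07). At no TNF its level was 56.2 and 63.9 CPM under SIK3 siRNA, above both control libraries. CXCL2 reached 54.3 and 62.0 CPM from 7.40 and 9.19 under control siRNA (difference −1.29 ± 0.15, adjusted p = 5.73e-05). CXCL8 reached 87.3 and 70.4 CPM from 25.1 and 17.0 (difference −0.96, adjusted p = 3.84e-04). With no TNF under SIK3 siRNA, CXCL2 stood at 10.6 and 13.7 CPM and CXCL8 at 40.0 and 32.0 CPM, above both control libraries. The 30 min levels of CXCL8 overlapped between siRNAs. CXCL3 had a log2 fold of 4.54 in the control and 2.94 here, a difference of −1.60 that did not pass (adjusted p = 0.0775), and for TNF the difference was −1.28 (adjusted p = 0.321).

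NFKBIZ rose to 310 and 292 CPM from 44.4 and 49.5 under control siRNA (difference −0.94 ± 0.11, adjusted p = 4.49e-05). NFKBIA rose to 654 and 622 CPM from 234 and 198 (difference −0.62, adjusted p = 4.14e-04). For both, every control library at 30 min lay above every SIK3 library at 30 min. This was so with no TNF as well, where the SIK3 libraries stood at 40.2 and 37.1 CPM for NFKBIZ and at 166 and 147 CPM for NFKBIA. TNFAIP3 had a difference of −0.64 (adjusted p = 0.0127). With no TNF it was at 36.0 and 40.4 CPM in the control and at 19.6 and 22.7 CPM under SIK3 siRNA. Its adjusted p lay between 0.0712 and 0.115 without the control 30 min library B, without the SIK3 libraries with no TNF B or C, or without the SIK3 30 min library B. ZFP36 reached 1101 and 2724 CPM from 157 and 440 under control siRNA (difference −1.22, adjusted p = 5.73e-06). IRF1 reached 285 and 291 CPM from 114 and 123 (difference −0.51, adjusted p = 1.13e-03), and DUSP1 269 and 289 CPM from 140 and 136 (difference −0.58, adjusted p = 3.31e-04). Under SIK3 siRNA, DUSP1 was above the control at both times, at 301 and 335, then 404 and 453 CPM. IRF1 was below the control at both times, at 56.6 and 64.3, then 99.3 and 107 CPM.

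Among the 44 genes called, the widest gaps were those of TNFSF9, IFNL1 and CD69. TNFSF9, the ligand of 4-1BB, rose from 0.90 and 0.64 to 6.53 and 5.41 CPM under control siRNA and stood at 4.26 and 3.54, then 8.35 and 4.51 CPM, under SIK3 siRNA (difference −2.23 ± 0.34, adjusted p = 1.13e-03). CD69, an early activation antigen, went from 8.72 and 7.85 to 37.9 and 32.9 CPM under control siRNA and from 23.5 and 19.9 to 32.0 and 25.0 CPM under SIK3 siRNA (difference −1.71 ± 0.14, adjusted p = 8.64e-07). Both genes were already higher with no TNF under SIK3 siRNA than in the control. CCL20, a chemokine for CCR6-bearing cells with a smaller gap, went from 13.7 and 9.61 to 34.0 and 24.2 CPM in the control and from 20.9 and 11.3 to 21.4 and 15.7 CPM here (difference −1.12, adjusted p = 1.12e-03, and 0.0784 without the SIK3 library with no TNF B). IFNL1, a type III interferon gene, went from 1.69 and 3.04 to 7.13 and 7.50 CPM in the control and from 1.88 and 3.20 to 1.83 and 1.86 CPM here (difference −2.07, adjusted p = 3.03e-03, and 0.0596 without the SIK3 library with no TNF C).

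Of the 32 immediate early genes, 1 had a higher log2 fold under SIK3 siRNA and 4 a lower one. The lower ones were JUN (difference −0.66, adjusted p = 1.44e-05), IER5 (−0.54, 0.0109), FOSL1 (−0.50, 0.0224) and IER3 (−0.44, 0.0241). FOSL1 was called lower at 30 min under SIK3 siRNA (log2 −0.35) and was not called in the control (0.16), so its response was not a smaller rise. These 4 are outside the rule for named genes. The higher one was FOS. In the control it went from 38.9 and 39.0 to 63.9 and 88.9 CPM, a log2 fold of 0.95 against 1.85 (difference 0.89 ± 0.15, adjusted p = 4.53e-03). Its 30 min levels overlapped between siRNAs, and its levels with no TNF were lower under SIK3 siRNA. The adjusted p lay between 0.0515 and 0.0779 without the control libraries no TNF B or 30 min B, the SIK3 library no TNF C or the SIK3 30 min library C. EGR2 had a difference of 1.06 (adjusted p = 0.148), EGR1 of 0.18, ATF3 of 0.27, JUNB of −0.03, IER2 of −0.14 and NR4A1 of −0.39, none of which passed.

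TXNIP, HMOX1, MCL1, DUSP6 and GDF15 were also called with higher log2 folds under SIK3 siRNA. TXNIP fell from 53.0 and 42.8 to 33.5 and 36.1 CPM in the control and rose here (difference 1.19 ± 0.13, adjusted p = 1.44e-05). HMOX1, heme oxygenase, went from 23.5 and 21.5 to 17.0 and 17.7 CPM in the control and from 107 and 105 to 137 and 129 CPM here (difference 0.71, adjusted p = 8.2e-04). MCL1 had a difference of 0.47 (adjusted p = 2.33e-03). The difference of DUSP6 was 0.76 (adjusted p = 3.39e-03), with an adjusted p of 0.0519 without the control library no TNF B and 0.0673 without the SIK3 library no TNF C. That of GDF15 was 0.58 (adjusted p = 0.0492), and its adjusted p was 0.106 to 0.465 without any one of 7 of the 8 libraries, the exception being the control library no TNF C. Genes called in opposite directions by the 2 comparisons were TXNIP and HMOX1, higher here and lower in the control, and CCL2, NUAK2 and DST, lower here and higher in the control, the last 3 named after their values were seen. CCL2, a monocyte chemokine, had log2 folds of −0.42 and 0.25, NUAK2, a kinase related to AMPK, of −0.35 and 0.61, and DST, which encodes a cytoskeletal linker, of −0.27 and 0.26. The response call here was lost for HMOX1 without the no TNF library B (adjusted p = 0.0889) or the 30 min library B (0.0771). It was lost for DST without the same libraries (0.536 and 0.548), and for NUAK2 without the no TNF library C (0.124) or the 30 min library B (0.205).

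**Figure D4:**
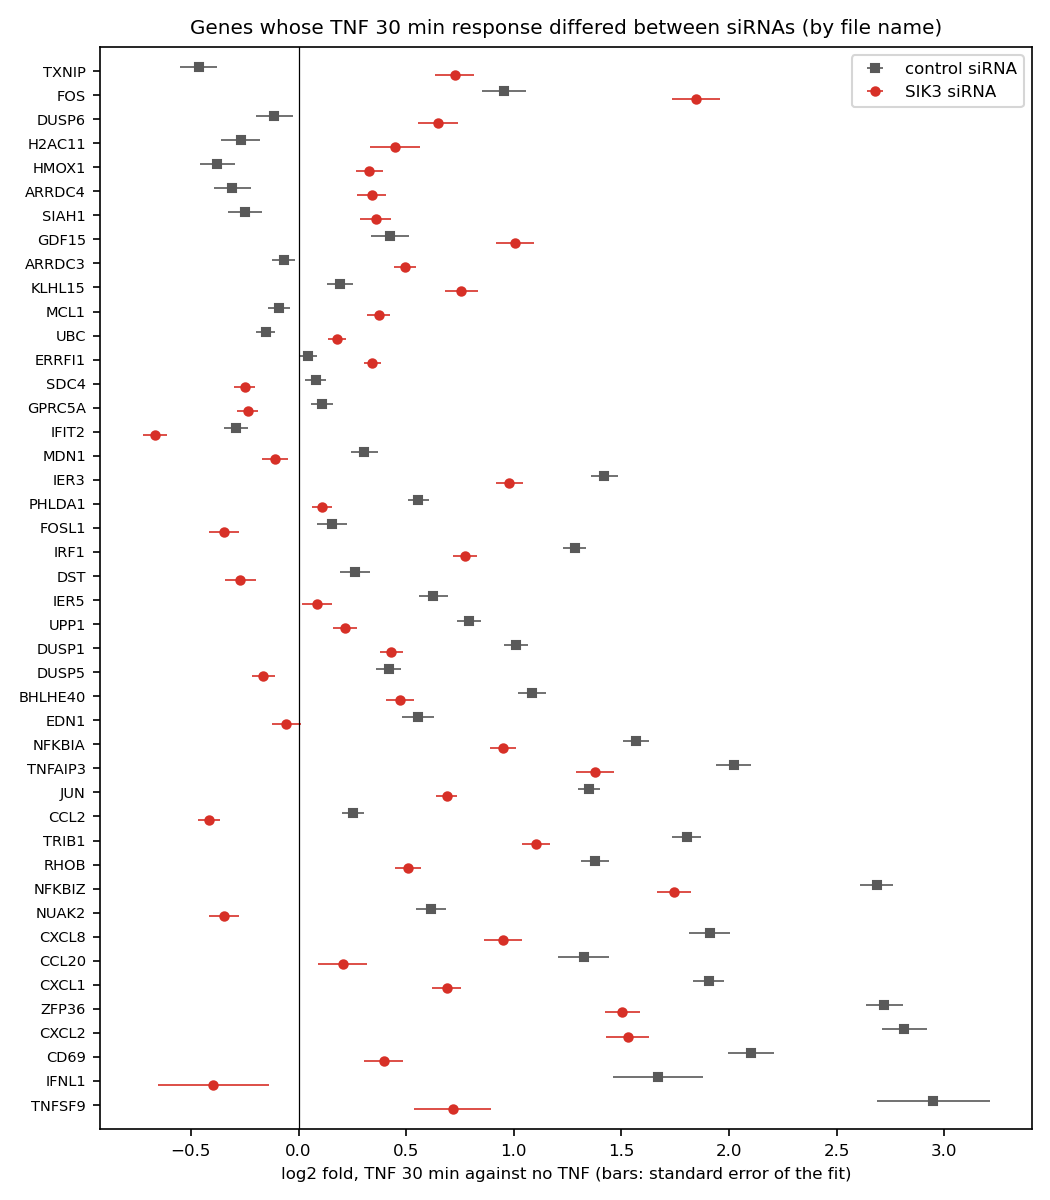
Log2 fold of TNF 30 min against no TNF (x axis, with the standard error of the fit) for the 44 genes whose response differed between siRNAs, grey squares for control siRNA and red circles for SIK3 siRNA, ordered by the difference. For 31 genes the red circle lies to the left of the grey square, down to TNFSF9 with 0.72 against 2.95, and for 13 it lies to the right, up to TXNIP with 0.73 against −0.47.

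The libraries named SIK3 siRNA with TNF for 4 h place the 30 min levels in time. Their comparison with 30 min shares the 30 min libraries with the response above, so values are set side by side only. The 4 h libraries also carry 16.5 and 17.1% of reads outside annotated genes, against 8.35 to 10.5% in the other 10, and the part of this in the 4646 calls (27.8%) was not tested. Of these, 2472 (14.8%) were higher and 2174 (13%) lower at 4 h, and 1182 genes were called without the replicate block. EGR2 was back at 2.39 and 4.52 CPM at 4 h, against 36.4 and 52.9 at 30 min, and FOS at 20.6 and 20.2 CPM, against 57.0 and 77.6. NFKBIA was higher again, at 554 and 567 CPM, as was TNFAIP3, at 105 and 125 CPM. NFKBIZ was at 112 and 124 CPM, against 119 and 142 at 30 min (adjusted p = 0.138 in the 4 h comparison), and CXCL2 was at 32.9 and 40.7 CPM, close to its 30 min levels of 29.1 and 41.0.

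Some genes that had fallen by 30 min stood above their unstimulated level at 4 h. TRAF1 was at 104 and 99.2 CPM, ICAM1 at 942 and 1320 CPM and NFKB1 at 358 and 352 CPM. CSF1 was at 635 and 1052 CPM and IFIT2 at 283 and 284 CPM. In each of these 5 genes both 4 h libraries lay above all 4 earlier libraries. Not all fallers did so. FADD, the death domain adaptor gene, went from 27.3 and 24.4 CPM with no TNF to 20.7 and 18.5 at 30 min (adjusted p = 0.0342, and 0.146 to 0.299 without any one of the 4 libraries) and was at 21.6 and 22.7 CPM at 4 h.

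**Figure D5:**
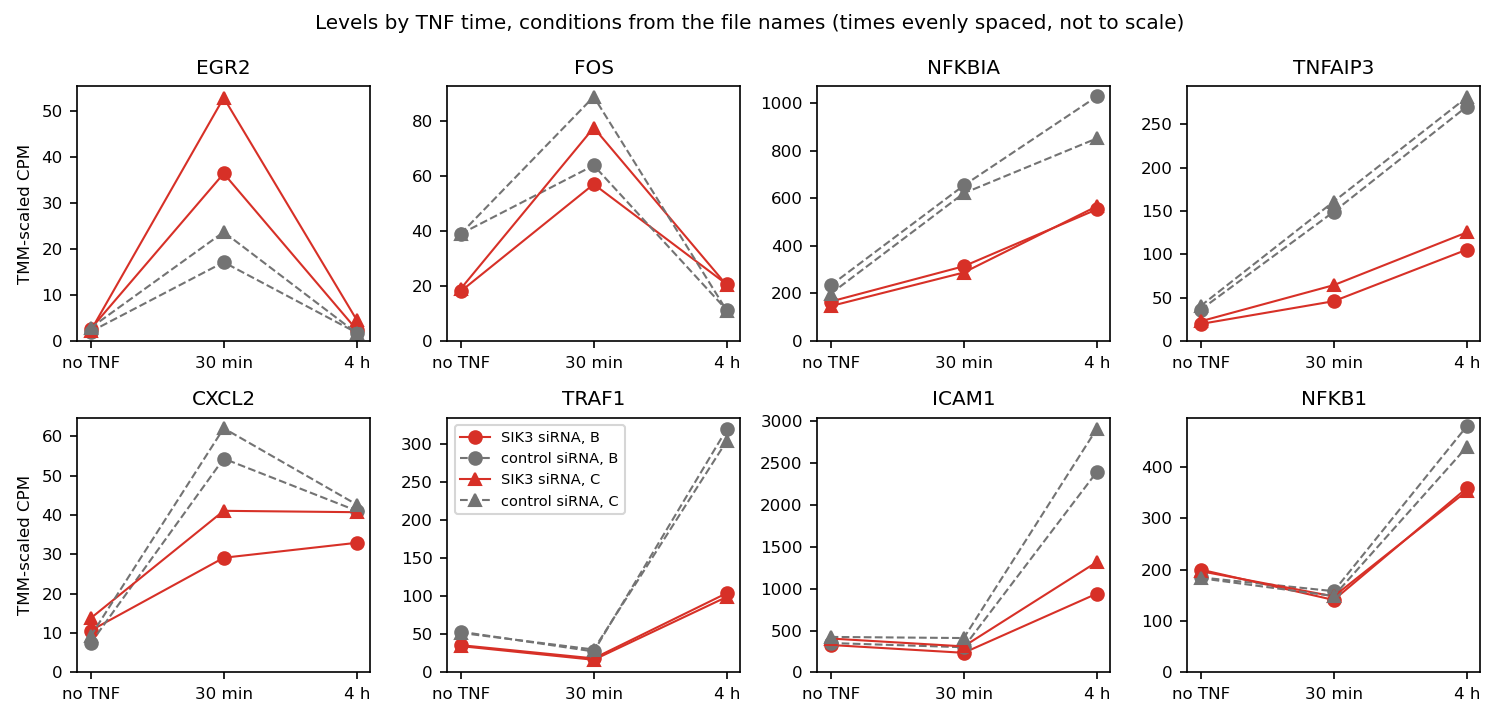
TMM-scaled CPM (y axis, linear) of 8 genes with no TNF, at 30 min and at 4 h (x axis, not to scale), red solid lines for SIK3 siRNA and grey dashed lines for control siRNA, circles for replicate B and triangles for C. EGR2 and FOS peak at 30 min, NFKBIA and TNFAIP3 climb through 4 h, and TRAF1 and NFKB1 dip at 30 min before their highest levels at 4 h.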

How the data were processed

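Total RNA of PANC-1 cells was extracted with RNeasy and DNase I and made into ScriptSeq libraries, per the labels. The authors deposited counts, whole numbers of reads per gene with 1 column for each of the 12 libraries, and the submitters' processing notes list STAR 2.05b and edgeR, with GRCh38 as build. The strand setting and annotation release are not given in the sources used here. Each count table holds 60669 Ensembl identifiers, 3742 of them without a name in the tables used, and 4 summary entries, which were left out. Positions came from GENCODE 29. Symbols came from a separate list of gene names, or from GENCODE 29 where that list had none.

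Conditions came from words in the count tables' names, and the titles' conditions were an alternative. The comparison, the gene lists and the genes described were chosen with earlier results of these data known.

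A quasi-likelihood fit of all 12 libraries was made with edgeR 4.0.16 in R 4.3.3, with 6 groups, the replicate letter as a block and 5 residual degrees of freedom. Genes passed filterByExpr (minimum count 10), libraries were scaled by TMM, and p-values were adjusted by Benjamini-Hochberg over the 16695 genes kept, with calls at an adjusted p under 0.05. Standard errors were the log2 fold divided by the square root of the quasi-likelihood F. The letters pair the libraries: deviations from the group mean correlated across genes between all 15 pairs of groups at 0.35 to 0.53 (median 0.422), and genes are not independent here. Replicates differed by a chi-square of 16.8 to 34.4 per degree of freedom, above counting error. The procedure was tested on simulated data that held no difference between the replicate letters. That test therefore cannot show how calls behave with such a difference, which these libraries have.

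The rule for naming genes took the SIK genes SIK1 to SIK3, the 15 largest rises and 15 largest falls among calls whose groups do not overlap and whose higher group averages 1 CPM or more, the 5 members of each list with the smallest p, the 8 largest each way from the test of the difference, and NFKBIA, TNFAIP3, EGR1, FOS, CXCL8 and TNF, and part of them are described. That part was chosen with the effect of left-out libraries known, and genes whose calls were lost without 1 library were left out more often. Alternatives were no block, titles, library totals or size factors from DESeq2 1.42.0 in place of TMM, its Wald test and voom from limma 3.58.1. Others were no filter, a filter asking 4 libraries to reach 1 CPM, only the libraries compared and an adjusted p under 0.01. Each library was also left out in turn, apart from those named control siRNA with 4 h. Chosen after seeing the data were the omission of the SIK3 siRNA 4 h libraries and a fit of the 6 libraries named SIK3. Figures were drawn in Python 3.11.15. Some genes that meet the naming rule are not reported here.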

Additional observations from a re-analysis of the deposited data

Results flagged for a closer look

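The response to 30 min of TNF differed between SIK3 and control siRNA, by the test of the difference itself, for 44 genes, and 19 of those described are listed here as log2 differences (SIK3 minus control siRNA). The log2 fold was lower under SIK3 siRNA for TNFSF9 (−2.23), IFNL1 (−2.07), CD69 (−1.71), CXCL2 (−1.29), ZFP36 (−1.22), CXCL1 (−1.22), CCL20 (−1.12), CXCL8 (−0.96), NFKBIZ (−0.94), TNFAIP3 (−0.64), NFKBIA (−0.62), DUSP1 (−0.58) and IRF1 (−0.51). It was higher for TXNIP (1.19), FOS (0.89), DUSP6 (0.76), HMOX1 (0.71), GDF15 (0.58) and MCL1 (0.47). Without the replicate block none of the 19 passed, and their directions were as here. With conditions from the titles, FOS, DUSP6 and MCL1 reversed.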

How the results depend on the processing

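Without the replicate block, the response under SIK3 siRNA had 25 calls in place of 563, the difference between siRNAs 0 in place of 44, the control response 49 in place of 464, and the 4 h step 1182 in place of 4646. Of the 57 genes whose response is described, 19 kept their side of the threshold without the block and 38 lost their call. The 19 include SIK1, SIK2, SIK3, CCL20 and IFNL1, whose response was not called with the block either. With conditions from the titles the counts were 9980, 8415, 3928 and 3642. Leaving out each library compared gave 214 to 248 calls for the response, 29 to 69 for the difference, 155 to 362 for the control and 3153 to 3826 for the 4 h step. Leaving out a library outside the comparison gave 537 to 816 calls for the response, with the control 4 h libraries never left out. At an adjusted p under 0.01 the response had 274 calls and the control 232. The response had 1439 calls with only its own 4 libraries. The difference had 180 calls without a filter and 91 without the SIK3 siRNA 4 h libraries. With library totals the 4 h step had 2115 genes higher and 3027 lower, against 2472 and 2174 with TMM. The cause of these shifts was not tested.

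The same 57 genes were chosen with the effect of left-out libraries known, so their agreement across settings does not stand for all calls. For them, no filter, the stricter filter and only the libraries compared kept direction and side of the threshold in every case. So did the omission of the SIK3 siRNA 4 h libraries. The DESeq2 Wald test did so for 48 and gave no adjusted p for the other 9, all of low counts. DESeq2 size factors, library totals, limma voom and the fit of the 6 libraries named SIK3 did so apart from NFKBIE with library totals (adjusted p = 0.0552), voom (0.0599) and the 6 libraries (0.068), DST with the size factors (0.0527) and the 6 libraries (0.0646), and TNFSF9 with the 6 libraries (0.055). Among the differences, GDF15 had an adjusted p of 0.0507 with the stricter filter. CXCL3 passed with the DESeq2 Wald test (adjusted p = 0.0208), without a filter (0.00287) and with only the libraries compared (0.0297), and EGR2 passed without a filter (0.00954).

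With conditions from the titles, 32 log2 folds of the response turned negative: EGR2 −3.01, EGR1 −2.68, EGR3 −2.03, EGR4 −1.74, FOS −2.03, NR4A1 −0.57, NR4A2 −0.84, ATF3 −1.25, JUNB −2.18, IER2 −2.38, NFKBIZ −2.95, TNFAIP3 −2.88, NFKBIA −2.03, CXCL3 −4.14, CXCL2 −2.27, CXCL8 −1.14, CXCL1 −0.94, TNF −3.82, DUSP2 −2.40, DUSP6 −1.15, ZFP36 −2.26, IRF1 −2.25, PLAU −0.66, MCL1 −1.05, CCNB1 −2.45, RASD1 −0.028, TXNIP −0.72, GDF15 −0.70, CD69 −0.71, TNFSF9 −0.63, SIK3 −1.50 and CCL20 −0.85. Turned positive were TRAF1 0.29, TNIP1 0.059, NFKB1 0.37, RELB 0.59, CSF1 0.57, IFIT2 0.38, GBP1 0.94, ICAM1 0.05, BCL2L1 0.085, SOD2 1.02, NAV3 0.55, CYLD 0.11, DST 0.20 and SIK2 0.41. The differences between siRNAs that reversed were FOS −0.22, DUSP6 −0.41, MCL1 −1.32, EGR2 −2.55, EGR1 −2.44 and ATF3 −2.30. Another count column was not run, since each table has 1. In genes near 1 CPM, such as TNF and SCNN1G, few counts limit the precision.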

Other observations

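A few genes outside the lists and the rule for named genes, picked after their values were seen from those called in the test of the difference between siRNAs, showed the same kinds of shift. RHOB, a small GTPase gene, had a log2 fold of 0.51 under SIK3 siRNA and 1.38 under control siRNA. BHLHE40, a basic helix-loop-helix repressor, had 0.47 and 1.08, and TRIB1, a pseudokinase gene, 1.10 and 1.80. EDN1, the endothelin precursor, had −0.06 and 0.55. On the other side were ARRDC3, an arrestin-domain gene of the TXNIP family, with 0.50 and −0.07, and KLHL15, with 0.76 and 0.19. As background, TXNIP and ARRDC3 belong to the same protein family, and both responses were higher under SIK3 siRNA. Levels with no TNF differed between siRNAs in several of these genes. EDN1 was at 107 and 96.1 CPM under SIK3 siRNA against 47.1 and 35.7 in the control, and RHOB at 88 and 74.9 against 59 and 53.6. KLHL15 was lower under SIK3 siRNA, at 18.8 and 15.6 CPM against 99.9 and 93.5.

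Among the 32 immediate early genes, the 3 that fell were FOSL1, CCN1 and CCN2. FOSL1 went from 76.3 and 261 CPM with no TNF (B, C) to 59.8 and 206 CPM at 30 min, CCN1 from 805 and 914 to 678 and 735 CPM, and CCN2 from 625 and 675 to 479 and 529 CPM. The groups of CCN1 and CCN2 did not overlap, and those of FOSL1 did.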
